A study of Mus musculus with 4 samples.

Results

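The genes described here are 10 mouse genes of the major histocompatibility complex (MHC) class II pathway of antigen presentation: H2-Aa, H2-Ab1, H2-Eb1, Cd74, Ciita, H2-DMa, H2-DMb1, H2-DMb2, H2-Oa and H2-Ob. They were chosen by gene symbol in the annotation of the array, which gave 13 probes for the 10 genes, out of 55677 probes and 24287 gene symbols in all. Their expression was measured in LSK cells, the marrow cells without lineage markers that carry Sca-1 and c-Kit and hold blood stem cells and their first descendants. Total RNA of 2 samples from mice labelled EZH1 knockout and 2 control samples, all of the C57Bl/6J strain, was hybridised to Agilent oligonucleotide arrays in 1 colour (Cy3). Ezh1 is a histone H3 lysine 27 methyltransferase of polycomb repressive complex 2, and the comparison asks what its loss does to gene expression in these cells. Not stated in the labels are the genotype of the control mice, the allele or Cre used, the deleted part of Ezh1, and the age and sex of the mice. Since the labels do not tie the replicates to separate animals, the p-values here speak for the spread of these samples alone, and it may be technical.

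MHC class II molecules are pairs of an alpha and a beta chain that show peptides from endosomes to CD4 T cells. In the mouse, H2-Aa and H2-Ab1 encode the chains of I-A, and H2-Eb1 encodes the beta chain of I-E, whose alpha chain is not made in mice of the H2b type such as C57BL/6. The invariant chain Cd74 fills the groove on the way to the endosome, H2-DM (H2-DMa with H2-DMb1 or H2-DMb2) exchanges its remnant for peptide, and H2-O (H2-Oa with H2-Ob) restrains H2-DM. Ciita is the coactivator that switches the whole set on. It is recruited by factors bound to the conserved X and Y boxes of class II promoters. B cells, dendritic cells and macrophages are the main cells known to carry class II, and B cells and thymic epithelium are those known for H2-O.

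Conserved X and Y boxes are known from class II promoters, so the stretches around the Y box are shown first. RefSeq promoter windows of assembly GRCm38.p6, from 250 bases before to 50 after a start, matched 7 of the 10 genes with 8 windows, all on chromosome 17. For H2-DMa and H2-DMb2 these starts lie inside the annotated gene and not at its outer start. Each sequence is written on the strand of its gene, 5′ to 3′. Capitals mark the Y box core ATTGG, the X box core AACNNATG where it stands before the Y box core, and, in H2-Aa, the cyclic AMP response element TGACGTCA.
H2-Aa, chr17:34287847-34287931, minus strand: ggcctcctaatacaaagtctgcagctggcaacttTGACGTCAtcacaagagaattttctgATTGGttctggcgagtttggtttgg
H2-Eb1, chr17:34305748-34305832, plus strand: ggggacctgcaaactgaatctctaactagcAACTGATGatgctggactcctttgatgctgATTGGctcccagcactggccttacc
H2-DMb1, chr17:34153070-34153154, plus strand: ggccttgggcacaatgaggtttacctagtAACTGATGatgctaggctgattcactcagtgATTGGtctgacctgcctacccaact
H2-DMb2, chr17:34145099-34145183, plus strand: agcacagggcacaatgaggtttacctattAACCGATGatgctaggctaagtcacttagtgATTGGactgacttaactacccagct
H2-Oa, chr17:34092276-34092360, plus strand: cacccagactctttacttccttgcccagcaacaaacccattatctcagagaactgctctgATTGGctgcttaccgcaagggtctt
H2-Ob, chr17:34238788-34238872, plus strand: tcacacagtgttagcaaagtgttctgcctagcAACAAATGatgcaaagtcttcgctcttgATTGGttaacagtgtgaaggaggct

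The Y box core begins 43 bases before the start used for the window in H2-Oa and 48 in H2-Aa. It begins 57 bases before it in H2-Ob, 59 in H2-Eb1, 61 in H2-DMb1 and 90 in H2-DMb2. In H2-DMa it starts 198 bases before the start in 1 of its 2 windows, and that stretch is not shown. Searched on both strands, ATTGG was present in 7 of the 8 class II windows and in 37.4% of all 32851 windows. AACNNATG was present in 4 of the 8 and in 8.86% of all windows. TGACGTCA was present in the H2-Aa window alone of the 8 and in 1.79% of all windows. An X box core followed after 18 to 25 bases by a Y box core was present in the windows of H2-Eb1 (22 bases between the cores), H2-DMb1 (23), H2-DMb2 (23) and H2-Ob (20), and in 17 windows in all (0.0517%). The letters and the spacing were set after the class II windows had been read, so that their own count is a description. The H2-DMb1 and H2-DMb2 windows are 62.3% identical when aligned, beside 53.0% for H2-Oa and H2-Ob and 49.3% for H2-Aa and H2-Eb1. Since H2-DMb1 and H2-DMb2 are close paralogues, their probes are uncertain as separate measures, which was not tested. H2-Eb2, a class II beta chain gene beside H2-Eb1, is among the other 13 genes with the pair of motifs. Of those 13, 9 had a probe in the test, with log2 fold changes, EZH1 KO minus control, from -0.70 for the splicing factor Hnrnph2 to 1.75 for Olfr530, and 0 were past the threshold (limma adjusted p = 0.780 for Hnrnph2 and 0.800 for Olfr530).

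Signals were brighter overall on some arrays than on others. The 75th percentile of intensity was 1095 and 1690.1 for the arrays labelled EZH1 KO, against 1594 and 1531 for controls. Values were therefore put on a scaled log2 axis, the log2 intensity minus the 75th percentile of its array, where 0 is that percentile. A probe counted as detected above the 20th percentile of its array, which was 22.8 and 87.3 on the EZH1 KO arrays and 12.4 and 57.6 on the control arrays. Over 43759 probes tested with limma, 0 (0%) had a Benjamini-Hochberg adjusted p under 0.05 and 2513 (5.74%) an unadjusted p under 0.05. The brightest Ezh1 probe had scaled log2 values of 0.92 and 1.14 on the EZH1 KO arrays, against 0.74 and 0.78 on the control arrays. The 4 Ezh1 probes tested disagreed in direction. With the deleted part unknown, these probes do not check the labels, so "EZH1 KO" stands for the arrays so labelled. The LSK markers Kit (the c-Kit receptor) and Ly6a (Sca-1) were detected on all 4 arrays, as were 9 of 10 listed LSK markers.

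Class II transcripts were measured well above the detection limit in LSK cells of both groups. None of the 10 genes was past the threshold, but with 2 arrays per group the test could hardly call any change. On simulated arrays 0% of changes of 1, 2 or 4 log2 units were past it. A lack of calls, here and in the lists below, therefore does not show that genes were unchanged. The chains of I-A and the invariant chain were 1.28-fold to 1.56-fold higher on the EZH1 KO arrays, and H2-DMb2 was 1.47-fold higher. H2-DMa, Ciita and the brightest H2-Ob probe lay within 1.07-fold of the controls, while a second H2-Ob probe was 1.18-fold lower. Of the 13 probes 12 were detected on every array, and a gene with several probes was represented by the brightest. On that basis 8 genes had a higher and 2 a lower mean on the EZH1 KO arrays, where 52.1% of all genes tested had a higher one. The median log2 fold change was 0.27, beside 0.03 over all 19287 genes tested. With the mean of a gene's probes instead, 7 genes were higher and 3 lower. Both EZH1 KO arrays lay above both control arrays for 4 genes (H2-Aa, H2-Ab1, Cd74 and H2-DMb2), where 17.5% of all genes tested did so. Both lay below for 1 gene (H2-DMa), where 21% of all genes did so. The number of class II genes with both EZH1 KO arrays above was 2 after quantile normalization, where 14.3% of all genes tested did so, and 0 under median centring of the arrays (11.3%). The number was 4 without EZH1 KO replicate 1 (40.3% of all genes tested) and 8 without EZH1 KO replicate 2 (28.6%). It was 5 without control replicate 1 (29.1%) and 7 without control replicate 2 (40.7%). With 1 array left out the groups separate more often for all genes. No class II gene had an unadjusted p under 0.05 (limma), where 4.71% of all genes tested did. In a bulk sample, fewer cells of a type and less RNA per cell cannot be told apart.

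**Figure D1:**
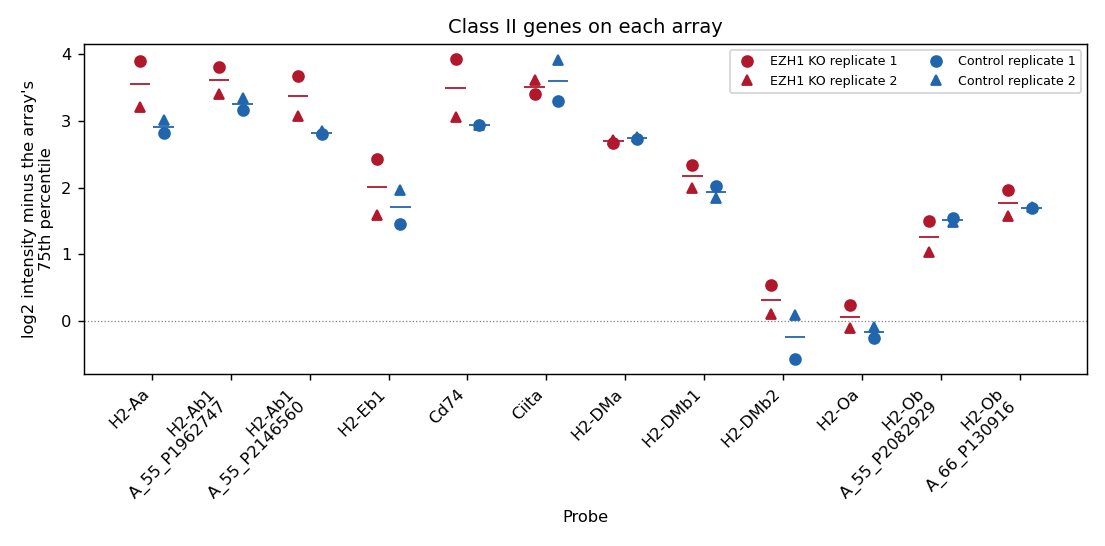
Scaled log2 intensity (log2 intensity minus the 75th percentile of the array) of the 12 detected class II probes, EZH1 KO arrays in red on the left and control arrays in blue on the right of each probe, with lines at the group means (n = 2 each). On this scale EZH1 KO replicate 1 is the highest of the 4 arrays for 8 of the 10 genes, all but Ciita and H2-DMa, by the brightest probe. That array has the lowest 75th percentile of intensity (1095). In unscaled intensity the groups overlap for H2-DMb2 and for the brightest H2-Ab1 probe, and stay apart for H2-Aa and Cd74. Levels of different probes cannot be compared with each other.

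Among the classical chains, the alpha chain gene H2-Aa had intensities of 16349 and 15602 on the EZH1 KO arrays, against 11206.5 and 12315 on the control arrays. On the scaled log2 axis it stood at 3.90 and 3.21 on the EZH1 KO arrays and at 2.81 and 3.01 on the control arrays. Both EZH1 KO arrays were above both controls, by at least 0.20, but the EZH1 KO arrays were 0.69 apart from each other. The log2 fold change was 0.64 (1.56-fold, 95% interval -0.38 to 1.66, limma adjusted p = 0.780). It was 0.30 without EZH1 KO replicate 1 and 0.99 without EZH1 KO replicate 2.

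Its partner H2-Ab1, the beta chain of I-A, was measured by a pair of probes. The brighter one (A_55_P1962747) had intensities of 15356 and 17939 on the EZH1 KO arrays, against 14254 and 15565 on the control arrays. On the scaled axis that was 3.81 and 3.41 against 3.16 and 3.35, and the nearest values of the groups were 0.06 apart. The other probe (A_55_P2146560) stood at 3.67 and 3.08 on the EZH1 KO arrays, against 2.80 and 2.84 on the control arrays. Both probes placed the EZH1 KO arrays above the controls, with log2 fold changes of 0.36 (95% interval -0.48 to 1.19, limma adjusted p = 0.782) and 0.55 (-0.38 to 1.49, adjusted p = 0.780). H2-Eb1, the I-E beta chain, had 5873 and 5089 on the EZH1 KO arrays, against 4367 and 5976 on the control arrays. The scaled values were 2.42 and 1.59 on the EZH1 KO arrays and 1.45 and 1.96 on the control arrays, so the groups overlapped. Its log2 fold change was 0.30 (-0.93 to 1.53, adjusted p = 0.827) and it was -0.12 without EZH1 KO replicate 1.

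The gene of the missing I-E alpha chain served as a comparison at the dim end. H2-Ea had intensities of 7.12 and 90.5 on the EZH1 KO arrays and 7.72 and 39.8 on the control arrays, above the detection limit on 1 of 2 EZH1 KO arrays and on 0 of 2 control arrays. With Btnl2 and Brd2, H2-Ea and H2-Eb2 made up a list of 4 further genes of the region, of which 3 were tested, 2 above and 1 below 0, with a median log2 fold change of 0.72. H2-Eb2 was dim but detected on all 4 arrays, with a log2 fold change of 0.89 (95% interval -1.54 to 3.32, limma adjusted p = 0.789).

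Cd74, the invariant chain, had intensities of 16636 and 14009 on the EZH1 KO arrays, against 12223 and 11725 on the control arrays. On the scaled axis it was 3.93 and 3.05 on the EZH1 KO arrays, and 2.94 on each control array. The controls coincided and both EZH1 KO arrays lay above them, the nearer by 0.11 and the farther by 0.99. The log2 fold change of 0.55 (1.46-fold, 95% interval -0.59 to 1.69, limma adjusted p = 0.780) was 0.11 without EZH1 KO replicate 1 and 0.99 without EZH1 KO replicate 2. The 4 genes of the classical chains and the invariant chain had a median log2 fold change of 0.45. EZH1 KO replicate 1 exceeded EZH1 KO replicate 2 by 0.69 for H2-Aa, 0.40 for H2-Ab1, 0.83 for H2-Eb1 and 0.87 for Cd74. Over all genes tested the median of that difference was -0.0047. Each of these distances within the EZH1 KO group was larger than the difference between the group means of the same gene.

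**Figure D2:**
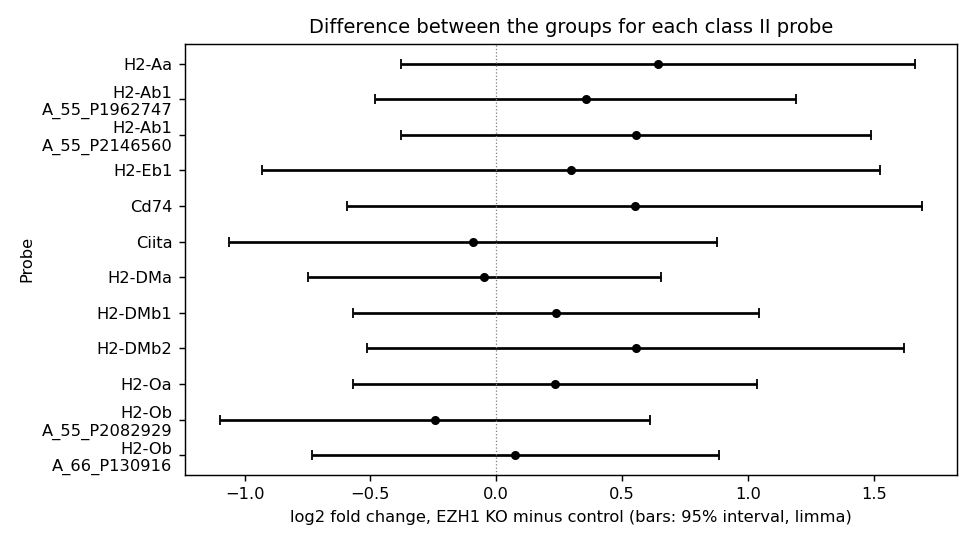
Log2 fold change, EZH1 KO minus control, of each detected class II probe, with the 95% interval from limma as bars. All 12 intervals include 0, and the highest value is 0.64 for H2-Aa.

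The peptide exchange factor H2-DM showed no common shift. H2-DMa, its alpha chain, had intensities of 6979 and 11098 on the EZH1 KO arrays and 10584 and 10309 on the control arrays. After scaling these became 2.67 and 2.72 on the EZH1 KO arrays, against 2.73 and 2.75 on the control arrays, the tightest set of the 10 genes. Both EZH1 KO arrays were the lower ones, by a gap of 0.016, with a log2 fold change of -0.05 (95% interval -0.75 to 0.65, limma adjusted p = 0.951). The beta chain gene H2-DMb1 stood at 2.34 and 2.00 on the EZH1 KO arrays and at 2.02 and 1.85 on the control arrays. The groups overlapped, and the log2 fold change was 0.24 (-0.57 to 1.04, adjusted p = 0.805). H2-DMb2, the other beta chain gene, had 1588 and 1819 on the EZH1 KO arrays, against 1083 and 1632 on the control arrays. On the scaled axis it was 0.54 and 0.11 on the EZH1 KO arrays and -0.56 and 0.09 on the control arrays, so that the groups were separate by 0.014. Its log2 fold change of 0.55 (-0.51 to 1.62, adjusted p = 0.780) was 0.23 without control replicate 1 and 0.88 without control replicate 2.

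The modulator H2-O was measured in LSK cells of both groups as well. H2-Oa had scaled log2 values of 0.24 and -0.10 on the EZH1 KO arrays, against -0.25 and -0.08 on the control arrays. The groups overlapped, with a log2 fold change of 0.23 (95% interval -0.57 to 1.04, limma adjusted p = 0.806). The brightest of 3 H2-Ob probes (A_66_P130916) stood at 1.97 and 1.58 on the EZH1 KO arrays and at 1.69 and 1.71 on the control arrays, a log2 fold change of 0.08 (-0.73 to 0.88, adjusted p = 0.931). A second probe of the same transcript (A_55_P2082929) stood at 1.50 and 1.03 on the EZH1 KO arrays and at 1.55 and 1.48 on the control arrays. The probes disagreed in direction, the second giving -0.24 (-1.10 to 0.61, adjusted p = 0.807). The last probe with the H2-Ob symbol (A_55_P2057931) was designed on a cDNA clone of another accession, was below the detection limit on all 4 arrays, with 5.49 and 66.2 on the EZH1 KO arrays and 11.5 and 12.1 on the control arrays, and was not tested.

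Ciita, the switch of the pathway, had intensities of 11548 and 20650.4 on the EZH1 KO arrays, against 15618 and 22941.5 on the control arrays. The scaled values were 3.40 and 3.61 on the EZH1 KO arrays, against 3.29 and 3.91 on the control arrays. The control arrays enclosed the EZH1 KO arrays, and the log2 fold change was -0.09 (95% interval -1.06 to 0.88, limma adjusted p = 0.929). It turned to 0.01 without EZH1 KO replicate 1 and to 0.21 without control replicate 2, and was -0.40 without control replicate 1. The array has 1 Ciita probe, so that the promoter forms of this gene known from dendritic cells and B cells are not told apart.

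Of 24 genes listed for the control of class II transcription all were tested, with a median log2 fold change of -0.14. On the EZH1 KO arrays 10 had a higher mean (52.1% of all genes tested) and 14 a lower one. None was past the threshold. The RFX complex, which binds the X box, gave -0.21 for Rfx5, 0.41 for Rfxank and -0.24 for Rfxap. The NF-Y subunits, which bind the Y box, gave -0.03 for Nfya, -0.38 for Nfyb and -0.32 for Nfyc. Creb1, which binds cyclic AMP response elements, stood at -0.86 on both EZH1 KO arrays, against -0.29 and -0.46 on the control arrays (log2 fold change -0.49, limma adjusted p = 0.780).

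Lineage factors in that list had the highest values. Pax5, the B-cell commitment factor, stood at -1.38 and -1.24 on the EZH1 KO arrays and at -2.53 and -1.98 on the control arrays, a log2 fold change of 0.95 (95% interval 0.04 to 1.86, limma adjusted p = 0.780). Irf8, a factor of dendritic, monocyte and B-cell development, stood at 3.53 and 2.81 against 2.03 and 2.55 (EZH1 KO against control), a log2 fold change of 0.88 (-0.27 to 2.03, adjusted p = 0.780). Irf4, a related factor, gave 1.80 with an interval from -0.51 to 4.11 (adjusted p = 0.780). For these factors both EZH1 KO arrays were above both controls. In the list of 24 this held for 6 genes (17.5% of all genes tested), and both lay below for 7 (21%). On the interferon-gamma route to Ciita, Irf1 gave -0.23, Ifngr1 0.13, Ifngr2 -0.16, Jak1 0.05 and Jak2 -0.36.

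All class II genes but Cd74 and Ciita lie side by side on chromosome 17, mixed with genes of the class I pathway. From H2-Oa to Btnl2 the RefSeq annotation lists 17 genes apart from microRNAs, 15 of which were tested, and 7 of these were not in the list of 10. Those 7 had a median log2 fold change of -0.21, with 2 values above 0 (52.1% of all genes tested) and 5 below, and 0 were past the threshold. Brd2, a bromodomain gene between H2-Oa and H2-DMa, gave -0.40. The peptide transporter genes Tap1 and Tap2 and the immunoproteasome genes Psmb8 and Psmb9, which stand between H2-DMb1 and H2-Ob, gave -0.17, -0.36, -0.21 and -0.33. At the other end Btnl2, a butyrophilin-like gene, stood at 2.64 and 2.50 on the EZH1 KO arrays, against 1.60 and 2.09 on the control arrays (0.72, 95% interval -0.15 to 1.60, limma adjusted p = 0.780). Both EZH1 KO arrays lay below both controls for 4 of the 7 neighbours (21% of all genes tested) and above them for 1 (17.5%).

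**Figure D3:**
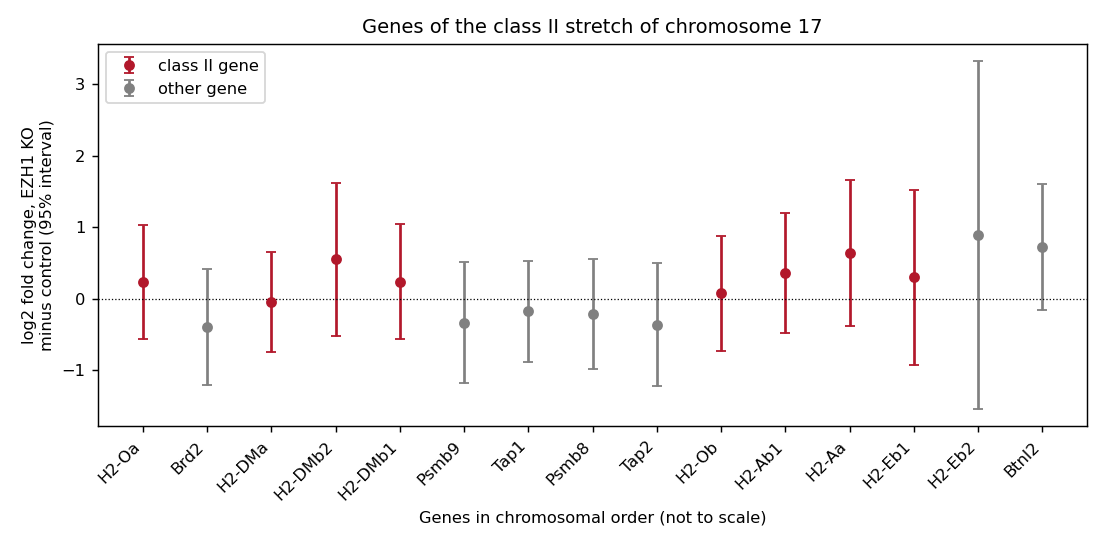
Log2 fold change, EZH1 KO minus control, with 95% intervals from limma, for the tested genes of the class II stretch of chromosome 17 in their order along the chromosome (distances not to scale), class II genes in red and the 7 other genes in grey. The run from Psmb9 to Tap2 lies below 0, from -0.36 to -0.17, and all intervals include 0.

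Genes that process antigen in the endosome had a median log2 fold change of 0.11, with 7 of 13 above 0 (52.1% of all genes tested) and 6 below. Ifi30, the thiol reductase of the lysosome, stood at 2.53 and 2.71 on the EZH1 KO arrays, against 1.91 and 1.88 on the control arrays (0.73, 95% interval 0.0034 to 1.46, limma adjusted p = 0.780). Ctss, the cathepsin that cleaves the invariant chain, stood at 3.73 and 2.85 on the EZH1 KO arrays, against 2.82 and 2.02 on the control arrays (0.87, -0.54 to 2.28, adjusted p = 0.780). Ctsz gave 0.49 and the ubiquitin ligase gene Marchf8 0.31, while Marchf1, known for the turnover of class II at the surface, gave -0.05. In 3 of these 13 genes both EZH1 KO arrays lay above both controls (17.5% of all genes tested), and in 0 below (21%).

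Class I presentation genes had 13 of 20 below 0, where 52.1% of all genes tested lay above, and a median log2 fold change of -0.17. Both EZH1 KO arrays lay below both controls for 7 of them (21% of all genes tested) and above for 4 (17.5%). The trimming peptidase Erap1 stood at -1.69 and -1.95 on the EZH1 KO arrays, against -0.86 and -1.10 on the control arrays (-0.84, 95% interval -1.63 to -0.05, limma adjusted p = 0.780). H2-M3 gave -0.79 and Psmb10 -0.31. The heavy chain genes H2-K1 and H2-D1 gave 0.20 and 0.31, and B2m, their light chain, 0.10, with H2-K1 and B2m turning below 0 after quantile normalization (-0.021 and -0.16) and H2-K1 also uncertain because its probes can share transcripts with related class I genes. The costimulation list holds inhibitory as well as activating signals to T cells. It had 3 of 7 tested genes above 0 (52.1% of all genes tested) and a median of -0.22. In it Cd80 gave 1.14, with its probes disagreeing in direction, Cd86 -0.75 and Pdcd1lg2 -0.56. Cd274, detected on 1 of 2 EZH1 KO arrays and tested through the control arrays alone, gave -1.38. None of the genes in either list was past the threshold.

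Markers of the cell types known to carry class II were set beside these values. All 12 B-lineage markers had a higher mean on the EZH1 KO arrays (52.1% of all genes tested). For 9 of them both EZH1 KO arrays lay above both controls (17.5% of all genes tested). The median log2 fold change of the 12 markers was 1.30. Their summed level, in units of the 75th percentile of the array, was 41.9 and 46.0 on the EZH1 KO arrays, against 30.3 and 37.6 on the control arrays. The single Cd22 probe made up 76.4% to 85.8% of it, and without Cd22 the sum was 9.88 and 8.44 on the EZH1 KO arrays, against 5.62 and 5.36 on the control arrays. The B-cell receptor subunit Cd79a stood at -1.21 and -2.02 on the EZH1 KO arrays, against -3.47 and -3.16 on the control arrays (1.70, 95% interval 0.56 to 2.84, limma adjusted p = 0.780). The B-cell surface gene Ms4a1 was detected on 1 of 2 control arrays and enters these counts through the EZH1 KO arrays alone. The precursor markers Vpreb3, Vpreb1 and Igll1 gave 2.03, 1.52 and 1.61 (adjusted p = 0.780 each).

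Pax5 counts in this list as well as among the transcription factors. Dendritic markers were split, 6 of 11 tested being above 0 (52.1% of all genes tested), with a median log2 fold change of 0.02. Their summed level was 44.3 and 30.3 on the EZH1 KO arrays and 49.6 and 55.5 on the control arrays, of which the brightest Siglech probe made up 78.8% to 85.3%. Without Siglech it was 8.61 and 6.43 on the EZH1 KO arrays and 7.69 and 8.16 on the control arrays. Xcr1 was detected on 0 of 2 EZH1 KO arrays and on 1 of 2 control arrays, and was not tested. Ccr7, the homing receptor of mature dendritic cells and lymphocytes, gave 1.37 and the dendritic factor Batf3 1.55, while Siglech, a marker of plasmacytoid cells, gave -0.61 with probes that disagree and Clec10a -0.44. Itgax (CD11c) stood at -2.04 and -3.04 on the EZH1 KO arrays, against -3.10 and -2.02 on the control arrays. Macrophage and monocyte markers had 5 of 11 above 0 (52.1% of all genes tested) and a median of -0.05. Their summed level was 34.0 and 34.5 on the EZH1 KO arrays, against 31.3 and 23.4 on the control arrays. The part of Csf1r in it was 39.5% to 68.1%. Csf1r, the receptor for M-CSF, gave 0.73 (95% interval -0.03 to 1.49, limma adjusted p = 0.780), Fcgr1 -0.53, Cd14 0.90 and Mrc1 -0.71. The summed level of the 10 class II genes was 78.0 and 58.9 on the EZH1 KO arrays, against 51.6 and 60.4 on the control arrays. No single gene made up more than 24.8% of it on any array. The part of these cell types in the class II values was not tested.

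Markers of other cell types differed in mean in the same contrast. All 10 neutrophil markers were above 0 (52.1% of all genes tested), with a median log2 fold change of 2.47. Their summed level was 110.1 and 95.2 on the EZH1 KO arrays and 42.5 and 46.2 on the control arrays. Among them were Ltf (3.36), Ngp (3.12), S100a8 (2.39) and Mmp9 (2.72). Mmp9 was detected on 1 of 2 control arrays and passed the filter through the EZH1 KO arrays alone. The T and NK markers had 8 of 8 tested above 0 and a median of 0.68, with Il2rb (1.65), Nkg7 (0.47), Cd5 (1.34) and Cd8b1 (2.27), the last pair detected on 1 of 2 control arrays each. The LSK markers had 9 of 10 below 0, where 52.1% of all genes tested lay above, and a median of -0.22. Kit was at -0.44 and Gata2 at -0.65, while Ly6a gave 0.69. Slamf1, detected on 1 of 2 EZH1 KO arrays and tested through the control arrays alone, was at -0.87. The erythroid and megakaryocyte markers had 6 of 6 below 0, where 52.1% of all genes tested lay above, and a median of -0.19. Among them were Klf1 at -0.39, Hbb-b1 at -0.21 and Pf4 at -0.17. None of these markers was past the threshold over all probes (limma, lowest adjusted p = 0.780), and their part in the class II values was not tested.

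**Figure D4:**
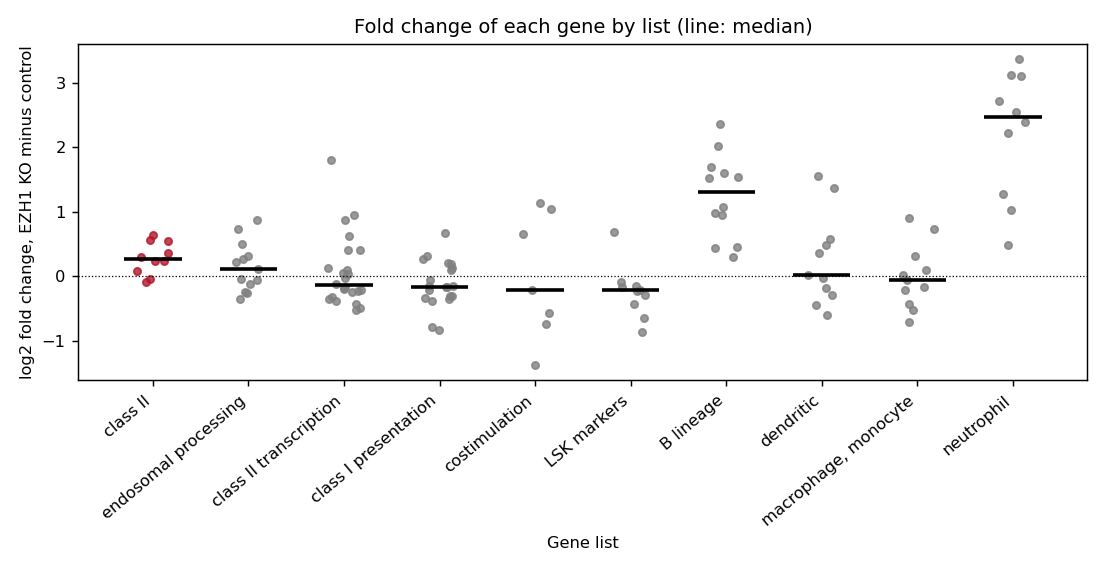
Log2 fold change, EZH1 KO minus control, of each tested gene, by the lists on the horizontal axis, class II genes in red, with a line at the median of each list. The class II median of 0.27 stands between 2.47 for the neutrophil markers and -0.22 for the LSK markers.

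The shift of the class II genes depended on single arrays. Their median log2 fold change was 0.06 without EZH1 KO replicate 1, 0.48 without EZH1 KO replicate 2, 0.19 without control replicate 1 and 0.38 without control replicate 2. Centring every array on its own median gave 0.05, in a setting where the median over all probes tested was -0.13. H2-Aa ranged from 0.30 to 0.99 and Cd74 from 0.11 to 0.99 over the 13 alternatives, always above 0. The sign held under all 13 alternatives for 7 of the 10 genes, the exceptions being H2-Eb1, Ciita and H2-Ob.

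**Figure D5:**
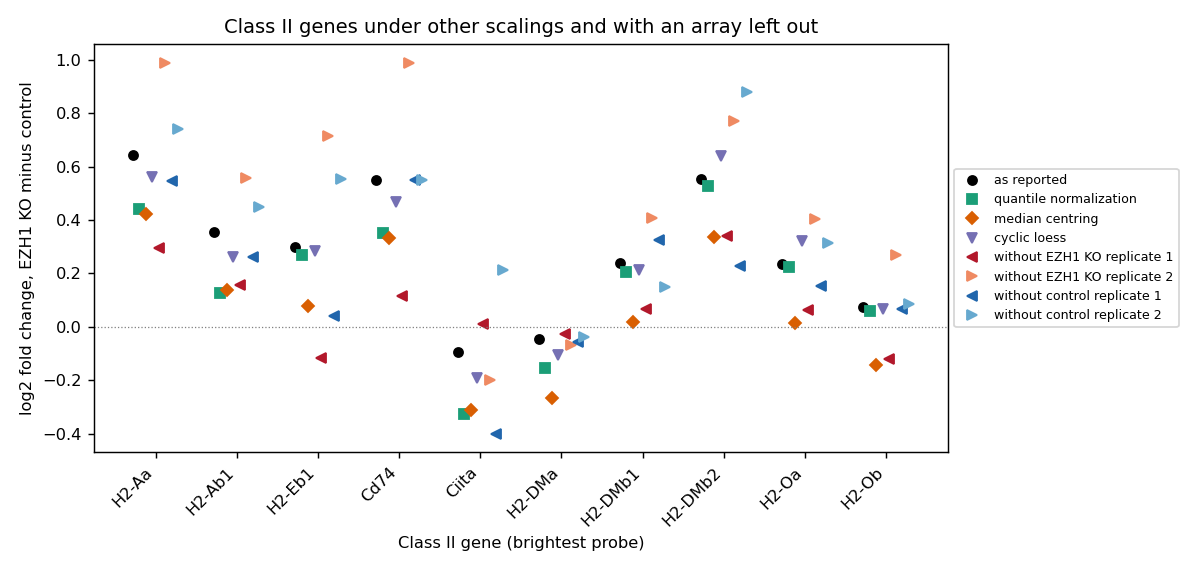
Log2 fold change, EZH1 KO minus control, of the 10 class II genes (brightest probe) as reported, under other scalings between arrays and with 1 array left out. H2-Aa stays between 0.30 and 0.99, and Ciita moves between -0.40 and 0.21.

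Likeness of pattern was measured as the root mean square difference, over the 4 arrays, between scaled log2 profiles centred on their own mean. Of 14493 named genes outside the lists, Atp8b2 (0.032), Tpm4 (0.065) and Tmem126a (0.066) were nearest to Cd74. Ms4a4b (0.015) and Mcf2l (0.044) were among those nearest to H2-Aa. Among the class II genes themselves H2-Aa was nearest to Cd74 (0.105) and Ciita farthest from it (0.546). The distances are over 4 arrays and are given as a description.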

How the data were processed

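Per the labels' protocols, total RNA of sorted LSK cells (integrity numbers 9 to 10, 0.1 to 5 ng) was amplified before labelling, with cycle numbers of 16, 16, 19 and 18 that are not tied to named samples; their part in the comparison was not tested. The authors deposited linear intensity per probe, and the submitters' processing notes name Agilent Feature Extraction, without its settings. The authors' deposited table also holds an absolute fold ratio and a p-value per probe. Its log2 ratios differ by at most 0.0025 from the scaled differences computed here. The deposited log2 values of the series matrix were not used as an alternative: its 16370 filled rows each lie within 0.021 of a row of the scaled intensities, but only 611 under the same probe ID.

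Intensities were taken to log2 (values under 1 set to 1) and each array's 75th percentile was subtracted. Probes above the 20th percentile of the array on all arrays of 1 or both groups were tested with limma 3.58.1 (R 4.3.3; lmFit, eBayes), two-sided, without a block, adjusted by Benjamini-Hochberg over all 43759 probes, threshold 0.05. With 2 arrays per group an exact permutation test cannot go below p = 0.333. Arrays were simulated with the observed means (43759 probes), variances drawn from limma's own fitted prior and no deviations shared between arrays. On them 0% of changes of 1, 2 or 4 log2 units were past the threshold. Of the 95% intervals 94.6%, 95.1% and 94.2% held the true change. These interval shares follow largely from the setup and do not check the intervals on the real arrays. The number of arrays limits the precision.

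Genes named were the 10 members, up to 4 genes with the smallest unadjusted p of each other list (class II region, endosomal processing, class II transcription, class I presentation, costimulation, and LSK, B-lineage, dendritic, macrophage and monocyte, neutrophil, T and NK, erythroid and megakaryocyte markers), and a fixed set of markers. Other genes of those lists and neighbours were named after their values were seen. Some named genes are not reported here. Members and lists were chosen with earlier results of these data known. Alternatives were other scalings, an offset, other filters, the mean of a gene's probes, a trended prior, the replicate number as a block, and each array left out. Symbols are those of the array design, updated through RefSeq accessions.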

Additional observations from a re-analysis of the deposited data

How the results depend on the processing

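No probe was past the threshold under any of the 13 alternatives run with limma, and the lowest adjusted p of a class II gene was 0.326. The median of the class II genes stayed above 0 in each, between 0.05 and 0.48, and between 0.06 and 0.48 with an array left out. The number of class II genes with both EZH1 KO arrays above both controls was 2 after quantile normalization (14.3% of all genes tested). It was 0 with median centring (11.3%). With an array left out it was 4 to 8 (28.6% to 40.7%), where a group of 1 array overlaps less by construction. The lone array is then assumed to vary like the other group. The series matrix alternative was not run, since its rows could not be tied to probes.

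Replicate numbers are shared between the groups but nothing in the labels pairs them. The differences between replicates 1 and 2 of the groups correlated across probes (Pearson's r = 0.690, genes not being independent). The highest r between arrays of different groups was 0.951, against 0.934 between the EZH1 KO arrays and 0.910 between the control arrays. With the replicate block 0 of 43759 probes were past the threshold and 9158 had an unadjusted p under 0.05 (2513 without it). Adjusted p of the class II genes (limma) then ran from 0.326 to 0.898.

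Signs turned in these cases, and the cause was not tested. With 1 array left out, the log2 fold change ran from -0.12 to 0.71 for H2-Eb1, from -0.40 to 0.21 for Ciita, from -0.12 to 0.27 for H2-Ob, from -0.059 to 1.84 for H2-Eb2, from -0.018 to 0.63 for Marchf8, from -0.12 to 0.31 for B2m and from -0.52 to 0.56 for Itgax. It ran from -1.71 to 0.28 for Mrc1, from -0.68 to 0.27 for Hbb-b1 and from -0.54 to 0.21 for Pf4. With median centring H2-Ob was -0.14, H2-K1 -0.018, B2m -0.12 and Itgax -0.20. After quantile normalization H2-K1 was -0.021, B2m -0.16 and Itgax -0.41, and with cyclic loess B2m was -0.030 and Itgax -0.14. With the mean of a gene's probes H2-Ob was -0.084, Siglech 0.21 and Ezh1 -0.21. Of the 51 genes outside the class II list that were followed through the alternatives, the other 41 kept their sign. Further genes named in the text were not followed through them.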

Other observations

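The deposited series matrix gives, for the 4 arrays, the same scaled log2 values as the intensity table under other probe names. Of its 16370 filled rows, 611 (3.73%) had their nearest row of the intensity table under their own probe ID. Over rows of the same ID, Pearson's r across probes between the matrix and the intensity table was 0.091 on EZH1 KO replicate 1. For 1097 genes with 2 or more probes in the filled rows, the first probes of a gene correlated with r = 0.564 in the intensity table and -0.0048 in the matrix.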
